A study of Mus musculus with 5 samples.

Results

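The genes of sugar entry, glycolysis, pyruvate and lactate handling and the pentose phosphate pathway were followed in ovarian granulosa cells of mice, together with 3 genes of the hypoxia response. The set was a list of 41 named genes, and a gene was measured where the array's annotation gave its symbol alone for a probe set. This held for 37 genes with 81 probe sets, out of 18194 genes and 45101 probe sets in the whole series. Gpi1, Pfkfb1, Eno1 and G6pdx had no probe set naming them alone and were not analysed here. Where a gene had several probe sets, as 23 of the 37 did, the one with the highest mean stood for it.

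Granulosa cells are the somatic cells that line the ovarian follicle, and after the ovulatory surge of luteinizing hormone they turn into luteal cells. All mice received equine chorionic gonadotropin (eCG), which makes follicles grow, for 48 h, followed by human chorionic gonadotropin (hCG), which acts in place of the surge. There were 5 Affymetrix arrays, 1 for each group. Wild type was measured 8 h and 24 h after hCG. The knockout, CEBPα/β fl/fl fl/fl with a Cyp19-cre transgene, was measured at 4 h, 8 h and 24 h, and wild-type cells at 4 h were not analysed here. The floxed genes for C/EBPα and C/EBPβ, a pair of basic leucine zipper transcription factors, are removed where the Cyp19 promoter drives Cre, in granulosa cells, so other ovarian cells should keep them. The labels give the mice's age as 23 days at 4 h and 8 h and 24 days at 24 h, and do not say how many animals an array holds. The comparisons ask which genes differ when granulosa cells respond to hCG without both factors.

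Glycolysis splits glucose into pyruvate in the cytosol. Hexokinase traps the sugar as a phosphate, phosphofructokinase commits it, and the lower enzymes from glyceraldehyde phosphate dehydrogenase to pyruvate kinase release energy. Pyruvate then becomes lactate through lactate dehydrogenase, or enters the mitochondrion, where the pyruvate dehydrogenase complex oxidises it unless the pyruvate dehydrogenase kinases (Pdk genes) switch that complex off. The pentose phosphate pathway draws off glucose phosphate to make NADPH and ribose. Hypoxia-inducible factor (HIF) raises many glycolytic genes by binding a short DNA element, and granulosa cells of the follicle, which has no vessels inside its basement membrane before ovulation, are known to supply the oocyte with pyruvate and lactate.

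The deposited values were intensities on a linear scale, and differences are given as log2 of knockout over wild type, or of 24 h over 8 h. With 1 array per group there is no replicate error and no test of a single comparison. A size rule stood in its place: a gene passed when its values differed by at least 2-fold and the higher one reached an intensity of 19, the 40th percentile of all values at 8 h and 24 h, called the floor here. Where the lower value lay below the floor, the floor took its place in the fold, which is then printed as "at least". A difference between the genotypes' changes was counted where any of its 4 intensities was at or above the floor. Pairs of intensities name wild type first and the knockout after it. The share of all genes that passed is printed beside the first count of each comparison. The only spread that could be measured was technical: different probe sets of a gene differed with an SD of 0.257 log2 units at 8 h and 0.389 at 24 h for the genotype difference. All 37 genes reached the floor on at least 1 of these 4 arrays and 35 on every one.

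Both deleted genes were low in the knockout. Cebpa read 685 in wild-type cells and 19 in knockout cells at 8 h, and 352 and 38 at 24 h, 36.1-fold and 9.26-fold lower. Cebpb read 7436 and 1127 at 8 h, and 3976 and 85 at 24 h, 6.60-fold and 46.8-fold lower. Of 15 granulosa and luteal markers, 12 had a probe set. All 12 reached the floor on at least 1 of the 4 arrays at 8 h and 24 h. At 8 h 1 was lower in the knockout, Ptgfr (211 and 11), against 3.94% of all genes. At 24 h 2 were lower, Ptgfr (920 and 182) and Star (1259 and 327), against 3.79%. At either time 0 were higher, against 1.54% of all genes at 8 h and 3.01% at 24 h. The knockout array at 4 h stood apart, with a median intensity of 54 against 31 or 32, and a ratio of the 3' to the 5' control probe set of Gapdh of 3.86 against 0.97 to 1.05 on the other arrays, so its values are given as a description only. The 18S ribosomal RNA control probe set read 709 on the knockout array at 8 h against 139 in wild type at 8 h, and 211 and 201 at 24 h; its part in the results that use the 8 h arrays was not tested. Markers of other ovarian cells also moved with genotype, most at 8 h. At 8 h, when 3.94% of all genes were lower, 14 of 15 endothelial markers were at least 2-fold lower in the knockout, with a summed intensity of 786 against 2532, as were 13 of 15 markers of stroma, pericytes and smooth muscle, at 6645 against 29582. At 24 h, when 3.79% of all genes were lower, this held for 3 of 15 in each list, with sums of 864 against 1579 and 13272 against 19628. Of the other lists, 3 of 6 theca markers were lower at 8 h and 0 of 5 at 24 h, and among 13 leukocyte markers 4 were lower and 1 higher at 8 h and 3 were lower at 24 h. Among 7 surface epithelium markers 2 were higher at 8 h and 1 was lower at 24 h, and of 3 erythroid markers 1 was lower at 8 h and 0 at 24 h. Of 9 oocyte markers 0 passed at either time. On the knockout arrays 4 endothelial markers lay below the floor at 8 h and 3 at 24 h, against 0 on both wild-type arrays. In bulk RNA fewer cells of a type and less RNA per cell cannot be told apart.

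The DNA just upstream of 5 genes is shown because Hk2, Pfkfb3 and Bnip3 were lower in the knockout at both times, and because Pgam1 and Ldha, like Hk2 and Pfkfb3, were at least 3-fold lower at 24 h. Each sequence is the 250 bases before a RefSeq transcription start in GRCm38.p6, written 5′ to 3′ on the gene's strand. They lie at chr6:82774455-82774704 (minus strand) for Hk2, chr2:11502091-11502340 (minus) for Pfkfb3, chr7:138909507-138909756 (minus) for Bnip3, chr19:41911621-41911870 (plus) for Pgam1 and chr7:46845554-46845803 (plus) for Ldha. Capitals mark the core of a HIF response element, ACGTG or GCGTG, and the C/EBP-type motif TTNNGNAA, each read on both strands. Pfkfb3 and Ldha have a second listed start whose window is not printed.
Hk2: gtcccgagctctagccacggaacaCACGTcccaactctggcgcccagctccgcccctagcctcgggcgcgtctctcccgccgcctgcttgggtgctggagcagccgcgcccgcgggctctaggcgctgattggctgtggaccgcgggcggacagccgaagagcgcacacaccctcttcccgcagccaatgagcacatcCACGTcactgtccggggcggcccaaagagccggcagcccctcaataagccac
Pfkfb3: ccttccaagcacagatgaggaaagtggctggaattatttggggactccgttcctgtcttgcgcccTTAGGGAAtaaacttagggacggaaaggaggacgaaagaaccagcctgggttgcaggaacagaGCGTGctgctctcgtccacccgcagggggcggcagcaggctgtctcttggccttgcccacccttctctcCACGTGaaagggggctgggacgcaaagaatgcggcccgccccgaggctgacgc
Bnip3: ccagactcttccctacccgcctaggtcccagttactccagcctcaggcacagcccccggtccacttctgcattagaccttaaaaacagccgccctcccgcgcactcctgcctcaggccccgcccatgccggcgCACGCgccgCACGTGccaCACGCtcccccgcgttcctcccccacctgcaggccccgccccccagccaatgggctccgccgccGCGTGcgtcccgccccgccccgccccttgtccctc
Pgam1: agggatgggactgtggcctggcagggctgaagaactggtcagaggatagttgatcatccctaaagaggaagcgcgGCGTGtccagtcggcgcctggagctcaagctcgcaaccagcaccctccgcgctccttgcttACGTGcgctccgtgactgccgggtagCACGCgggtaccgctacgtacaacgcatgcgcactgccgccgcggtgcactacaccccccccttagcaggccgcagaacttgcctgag
Ldha: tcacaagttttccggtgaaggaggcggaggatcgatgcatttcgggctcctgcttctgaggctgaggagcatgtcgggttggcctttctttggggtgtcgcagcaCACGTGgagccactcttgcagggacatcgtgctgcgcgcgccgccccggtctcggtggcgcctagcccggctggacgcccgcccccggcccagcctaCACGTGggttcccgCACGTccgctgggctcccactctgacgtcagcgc

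Matches to the HIF element core were 2 in the window of Hk2, 3 in that of Pfkfb3, 5 in that of Bnip3, 3 in that of Pgam1 and 5 in that of Ldha. The palindrome CACGTG, an E-box that contains ACGTG on both strands and so counts as 2 matches, occurred 1 time each in the windows of Pfkfb3 and Bnip3 and 2 times in that of Ldha. TTNNGNAA occurred 1 time in the printed window of Pfkfb3 and 0 times in the printed windows of Hk2, Bnip3, Pgam1 and Ldha. The window at the second start of Ldha (chr7:46846832-46847081) held 1 TTNNGNAA and 1 HIF element core, and that of Pfkfb3 (chr2:11553930-11554179) held 0 and 1. Windows were found for 40 of the 41 genes, 60 in all, and ACGTG or GCGTG stood in 45 of them (75%). The same core was in 38.6% of all 32851 windows and in 53.2% of the windows of genes above the floor. Median GC content was 60% in the windows of the set, 59.2% in those of genes above the floor and 52.4% over all. TTNNGNAA stood in 23 of the 60 windows (38.3%), against 36.8% of all windows and 28.4% above the floor. For CACGTG the count was 7 of 60 (11.7%), against 6.02% and 8.04%. These matches describe the letters in a window and do not show that a factor binds there.

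At 24 h the glycolysis set lay mostly lower in the knockout. Of the 37 genes, 10 were at least 2-fold lower (27.0%), against 3.79% of the 13543 genes tested, and 2 were at least 2-fold higher (5.41%), against 3.01%. The lower genes were Hk2, Pfkp, Pfkfb3, Aldoc, Pgk1, Pgam1, Ldha, Slc16a3, Egln3 and Bnip3, and the higher ones Eno2 and Pdk4. The median log2 difference was -0.448, against 0.051 over all genes, and 29 of 37 genes were below 0. At 8 h the picture was narrower: 3 genes were lower (8.11%), Hk2, Pfkfb3 and Bnip3, against 3.94% of 13382 genes, and 1 was higher (2.7%), Eno2, against 1.54%. The median at 8 h was 0.005, against -0.006 over all genes, and 18 of 37 genes were below 0. All 3 genes lower at 8 h were among the 10 lower at 24 h.

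**Figure D1:**
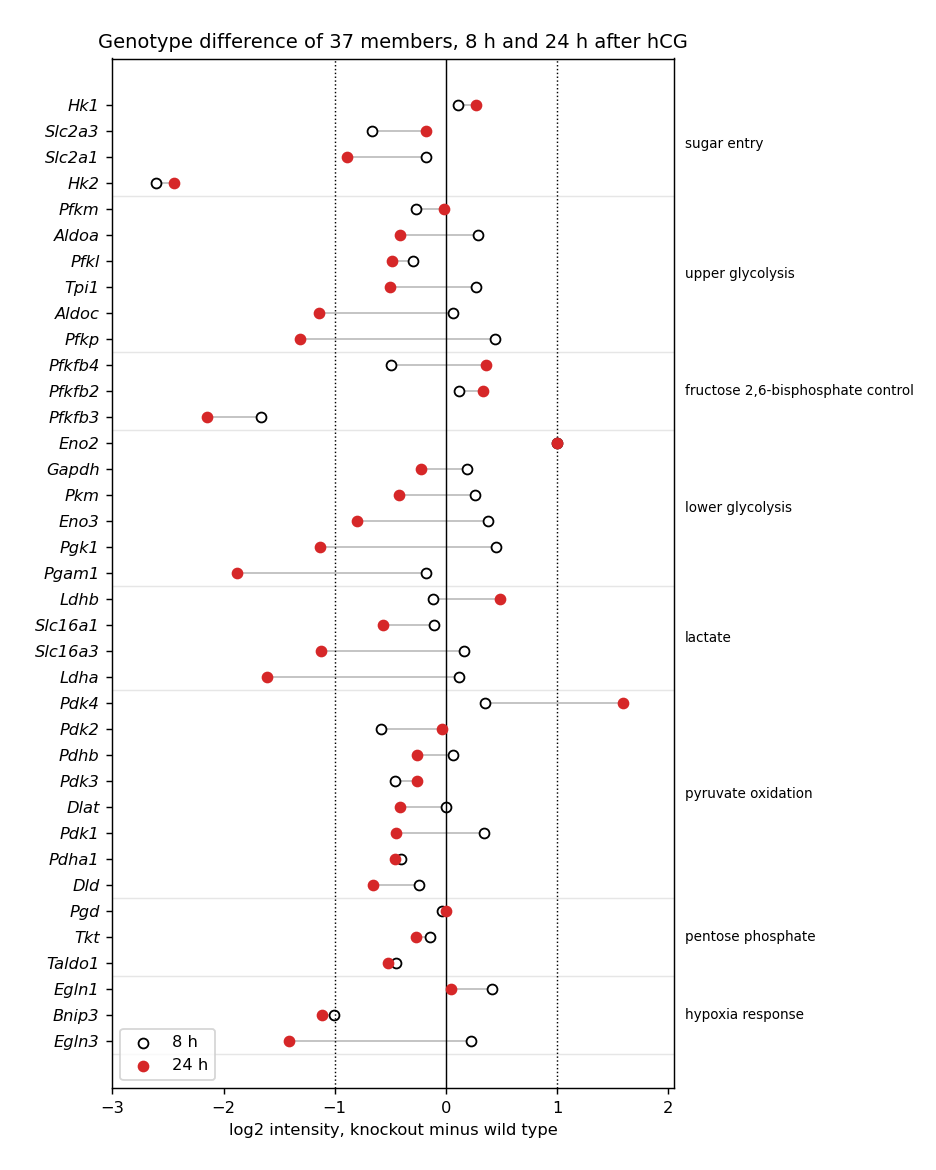
The plot gives the log2 intensity difference, knockout minus wild type, for each of the 37 genes at 8 h (open circles) and 24 h (red circles), ordered by role, with 1 array per group, no error bars and dotted lines at 2-fold. Hk2 and Pfkfb3 lie far to the left at both times, while Pgam1, Ldha, Pfkp and Egln3 lie between -0.18 and 0.44 at 8 h and left of the line at 24 h.

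Among the sugar entry genes 1 of 4 passed, a hexokinase, and it did so at both times. Hk2, the inducible hexokinase, read 761 in wild type at 8 h against 125 in the knockout, and 1073 and 197 at 24 h. It was 6.09-fold and 5.45-fold lower, log2 differences of -2.61 and -2.45. Both knockout values lay far below both wild-type values, and the knockout array at 4 h read 553. Hk1, the constitutive hexokinase, read 543 and 585 at 8 h and 618 and 745 at 24 h, and its log2 differences of 0.11 and 0.27 did not pass. A second, dimmer Hk1 probe set read 36 and 36, then 41 and 27, with differences of 0.0 and -0.603. The sign of Hk1 at 24 h thus differed between its probe sets. Slc2a1, the basal glucose transporter, read 939 and 827 at 8 h and 930 and 501 at 24 h. Its log2 differences were -0.18 and -0.89, the latter short of the size rule, and its 2 other probe sets gave -0.888 and -0.971 at 24 h. Slc2a3, the high-affinity glucose transporter, read 106 and 67 at 8 h and 87 and 77 at 24 h, with differences of -0.66 and -0.18.

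The phosphofructokinases and their regulators differed among paralogs. Pfkfb3 makes the strongest allosteric activator of phosphofructokinase, and it read 295 in wild-type cells and 93 in knockout cells at 8 h and 252 and 57 at 24 h. That made it 3.17-fold and 4.42-fold lower, with both knockout values below both wild-type values. Its other probe set lay below the floor, and the mean of both gave log2 differences of -1.022 and -1.175 in place of -1.67 and -2.14. Its relatives did not pass in either genotype comparison: Pfkfb4 read 894 and 636 at 8 h and 155 and 199 at 24 h, with log2 differences of -0.49 and 0.36. Pfkfb2 read 60 and 65, then 80 and 101, with differences of 0.12 and 0.34. Of the phosphofructokinases themselves, Pfkp, the platelet type, had opposite signs at the 2 times. It read 329 and 446 at 8 h and 719 and 289 at 24 h, log2 differences of 0.44 and -1.31, the second a 2.49-fold lower value. Pfkl, the liver type, read 229 and 186, then 589 and 421, with differences of -0.30 and -0.48. Pfkm, the muscle type, read 172 and 143, then 319 and 316, with differences of -0.27 and -0.01, so neither of these passed.

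Further down the pathway several enzymes did not pass at 8 h and were lower in the knockout at 24 h. Pgam1, phosphoglycerate mutase, read 2529 and 2229 at 8 h and 4979 and 1351 at 24 h. The 24 h value was 3.69-fold lower, a log2 difference of -1.88 against -0.18 at 8 h. Pgk1, phosphoglycerate kinase and the first ATP-making step, read 4924 and 6726 at 8 h and 5567 and 2540 at 24 h. It was thus above wild type at 8 h, by 0.45, and 2.19-fold below it at 24 h, where 2 further probe sets gave log2 differences of -0.691 and -0.609. Aldoc, the brain-type aldolase, read 112 and 117 at 8 h and 633 and 287 at 24 h, 2.21-fold lower at the later time. A different Aldoc probe set stayed below the floor on these arrays, so the Aldoc values rest on 1 probe set. Aldoa, the main aldolase, read 5574 and 6820, then 8026 and 6014, with log2 differences of 0.29 and -0.42.

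The measured enolases, Eno2 and Eno3, both lay above wild type at 8 h and had opposite signs at 24 h. Eno2, the neuronal enolase, read 26 in wild-type cells and 52 in knockout cells at 8 h and 17 and 34 at 24 h, 2-fold and at least 1.79-fold higher. These intensities are near the floor, where whole-number rounding moves a fold easily, and with 16 added before log2 the differences were 0.695 and 0.599, short of the rule. Eno3, the muscle enolase, read 66 and 86 at 8 h and 231 and 133 at 24 h, with differences of 0.38 and -0.80 that did not pass. Tpi1, Gapdh and Pkm, triose phosphate isomerase, glyceraldehyde phosphate dehydrogenase and pyruvate kinase, all lay slightly higher at 8 h, by 0.19 to 0.27, and lower at 24 h, by -0.50 to -0.22, short of the rule at both times.

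For lactate, the dehydrogenase subunits and the transporters were measured. Ldha, the subunit that favours making lactate, read 3322 in wild-type cells and 3608 in knockout cells at 8 h, and 5709 and 1874 at 24 h. It was 3.05-fold lower at 24 h, a log2 difference of -1.61 against 0.12 at 8 h. Ldhb, the subunit that favours using lactate, read 2934 and 2707, then 2400 and 3358, with differences of -0.12 and 0.48. The subunits thus had opposite signs at 24 h, and the difference for Ldhb did not pass. Slc16a3, a lactate exporter, read 17 and 19 at 8 h and 37 and 17 at 24 h, at least 1.95-fold lower at 24 h with 3 of 4 values at or below the floor; with 16 added before log2 the difference was -0.684 and did not pass. Slc16a1, a lactate carrier of wide expression, read 698 and 647, then 1539 and 1039, with differences of -0.11 and -0.57.

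**Figure D2:**
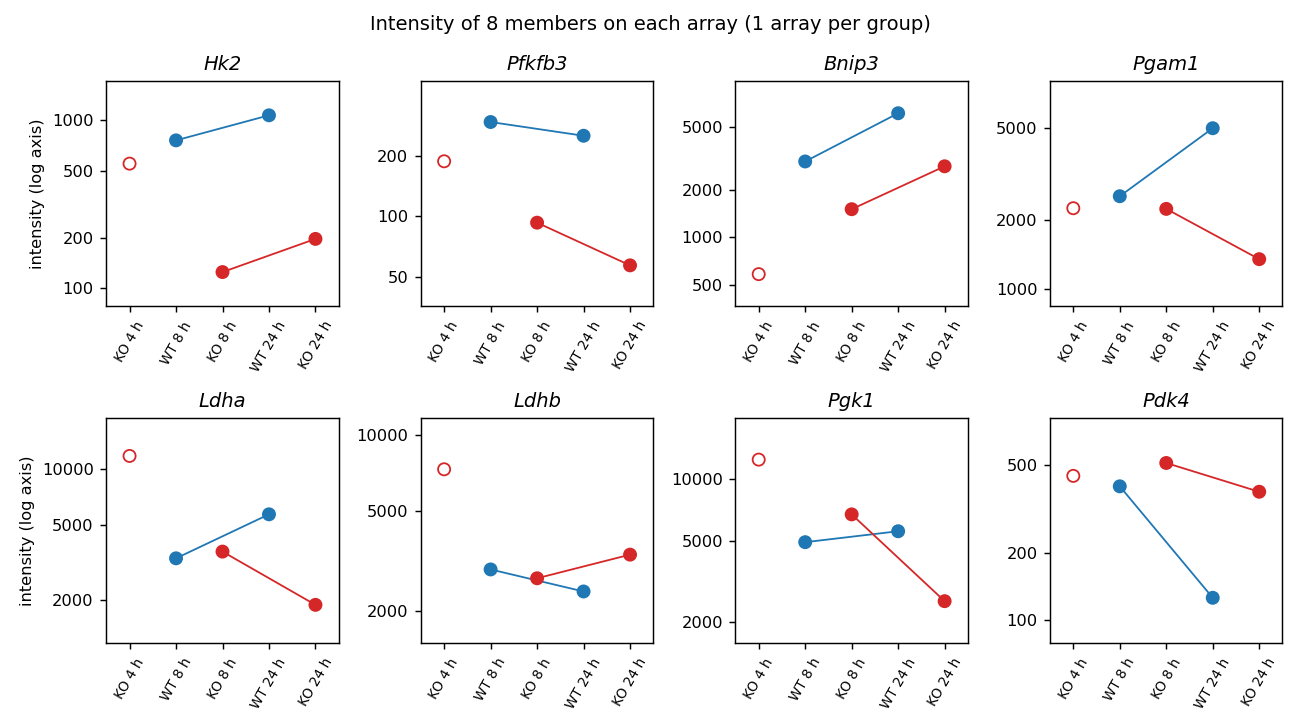
Each panel gives the intensity (log axis) of 1 gene on each of the 5 arrays, wild type in blue and knockout in red. Lines join 8 h to 24 h within a genotype. An open circle marks the knockout array at 4 h, which may not share the scale of the others. The knockout values of Hk2, Pfkfb3 and Bnip3 lie below the wild type at both times, and those of Ldha, Pgk1 and Pgam1 lie below it at 24 h, at 1874 against 5709 for Ldha.

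Pyruvate oxidation went the other way for one gene. Pdk4, a kinase that switches off pyruvate dehydrogenase, read 401 in wild-type cells and 511 in knockout cells at 8 h, and 126 and 379 at 24 h. It was 3.01-fold higher in the knockout at 24 h, a log2 difference of 1.59 against 0.35 at 8 h. Of these 4 arrays the wild type at 24 h was the low one. Its relatives did not pass: Pdk1 read 96 and 122, then 322 and 236, Pdk2 read 36 and 24, then 41 and 40, and Pdk3 read 460 and 334, then 364 and 303. The subunits of the complex, Pdha1, Pdhb, Dlat and Dld, did not pass either, with log2 differences from -0.40 to 0.06 at 8 h and from -0.65 to -0.26 at 24 h.

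The pentose phosphate genes did not pass in any genotype comparison. Pgd, phosphogluconate dehydrogenase, read 1980 and 1927 at 8 h and 2429 and 2431 at 24 h, differences of -0.04 and 0.00. Tkt, transketolase, had differences of -0.14 and -0.27, and a further probe set, at 2031 and 1043, gave -0.961 at 24 h. Taldo1, transaldolase, read 2306 and 1685, then 3327 and 2324, and was lower at both times by a similar amount, -0.45 and -0.52, short of 2-fold.

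The hypoxia response genes were split. Bnip3, a mitophagy receptor and HIF target, read 3018 in wild-type cells and 1504 in knockout cells at 8 h and 6101 and 2813 at 24 h. It was 2.01-fold and 2.17-fold lower, and the 8 h value lies at the edge of the rule, falling to log2 differences of -0.961, -0.986 and -0.957 under the 3 other scalings. Egln3, a HIF prolyl hydroxylase that is itself a HIF target, read 349 and 408 at 8 h and 69 and 26 at 24 h, 2.65-fold lower at 24 h. A second Egln3 probe set disagreed at 24 h in size, with a difference of -0.138, and at 8 h gave 0.955 against 0.23. Egln1, the main HIF prolyl hydroxylase, read 373 and 497, then 423 and 437, with differences of 0.41 and 0.05.

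With the mean of all probe sets of a gene in place of the brightest one, 6 genes were lower at 24 h instead of 10. Over all genes 423 of 12854 were lower under this choice. Pfkp, Aldoc, Pgk1 and Egln3 then missed the rule, at -0.642, -0.794, -0.811 and -0.773. For Pfkp and Aldoc the other probe sets in that mean lay below the floor at 8 h and 24 h. For the 12 genes that passed at 24 h, 3 other probe sets lay above the floor; all 3 had the same sign and 0 passed 2-fold. Hk2, Ldha, Pgam1, Slc16a3, Bnip3, Eno2 and Pdk4 have 1 probe set each, so this alternative could not change them.

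A fit of the genotype difference averaged over both times, with limma and time as a term, had 1 residual degree of freedom, which is the genotype by time interaction and not replicate error. It called 0 of 13787 genes lower (0.0%) and 0 higher (0.0%) at a Benjamini-Hochberg adjusted p of 0.05. Without adjustment 1490 of the 13787 genes and 5 of the 37 were below 0.05 in limma. These 5 are not read as a result about the set. Hk2 had a difference of -2.53 (SE 0.165), with an adjusted p = 0.29 in limma. Pfkfb3 followed at -1.91 (SE 0.212, adjusted p = 0.305 in limma) and Bnip3 at -1.06 (SE 0.125, the same adjusted p).

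In wild type, more genes of the set were higher than lower at 24 h against 8 h. Of the 37, 8 were at least 2-fold higher at 24 h (21.6%), against 5.41% of 13501 genes, and 3 were lower (8.11%), against 6.25%. The median change was 0.415, against 0.004 over all genes. The higher genes were Pfkl, Pfkp, Aldoc, Eno3, Slc16a1, Slc16a3, Pdk1 and Bnip3, by 2.57-fold for Pfkl, 2.19-fold for Pfkp, 5.65-fold for Aldoc and 3.50-fold for Eno3. Pdk1, a HIF-responsive kinase of pyruvate dehydrogenase, was 3.35-fold higher, Slc16a1 2.20-fold and Bnip3 2.02-fold, and Slc16a3 at least 1.95-fold. The lower genes were Pfkfb4 (5.77-fold), Pdk4 (3.18-fold) and Egln3 (5.06-fold). Pdk1 and Pdk4 therefore went opposite ways. With the mean of probe sets Pfkl (0.906), Pfkp (0.571) and Slc16a1 (0.570) missed the rule, and with 16 added before log2 so did Slc16a3 (0.684).

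In the knockout, 3 of 37 were higher at 24 h (8.11%), against 6.62% of 13495 genes, and 3 were lower (8.11%), against 5.1%. Both counts lay near the background, and the median change was -0.132, against 0.074 over all genes. Pfkl (2.26-fold), Pfkm (2.21-fold) and Aldoc (2.45-fold) were higher, and Pfkfb4 (3.20-fold), Pgk1 (2.65-fold) and Egln3 (15.7-fold) lower. Pfkl and Aldoc were higher and Pfkfb4 and Egln3 lower in both genotypes, though with the mean of probe sets the knockout's changes in Pfkl (0.562) and Aldoc (0.527) missed the rule. The wild-type array at 24 h enters both the change in wild type and the genotype difference at 24 h, so these comparisons share arrays.

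**Figure D3:**
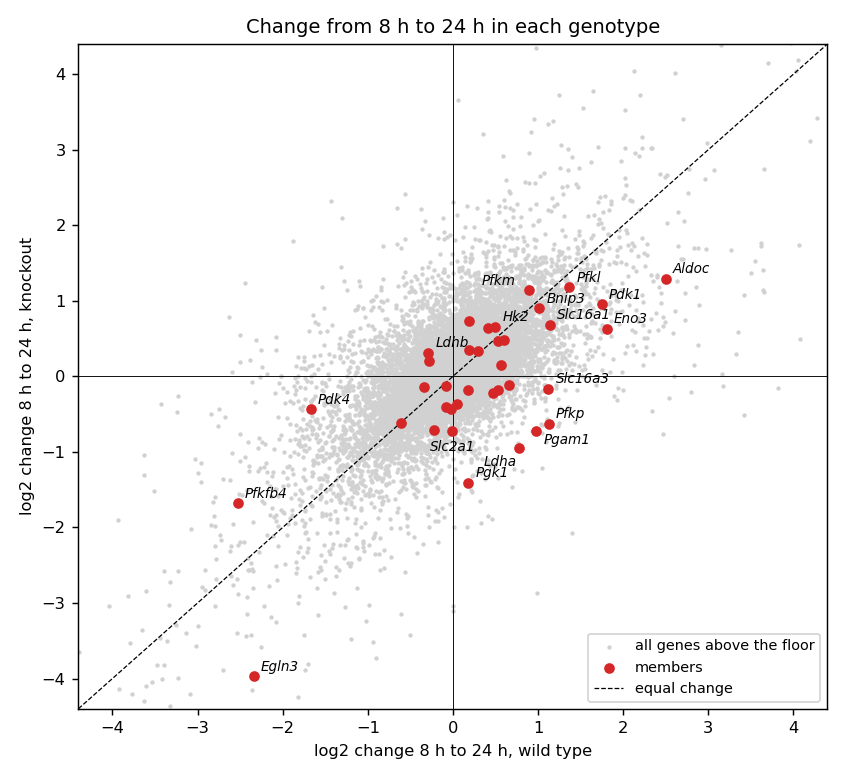
The plot sets the log2 change from 8 h to 24 h in the knockout against that in wild type, with the glycolysis set in red, the other genes above the floor in grey and the line of equal change dashed; 30 of these genes lie beyond the axes. Ldha, Pgam1, Pfkp and Pgk1 lie below the line, with a positive change in wild type and a negative one in the knockout.

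The difference between the genotypes' changes was taken directly, as the genotype difference at 24 h minus that at 8 h. Of the 37 genes, 8 were lower by at least 2-fold (21.6%), against 3.02% of 13787 genes, and 1 was higher (2.7%), against 4.89%. The lower genes were Pfkp (-1.75), Ldha (-1.73), Pgam1 (-1.70), Egln3 (-1.63), Pgk1 (-1.58), Slc16a3 (-1.28), Aldoc (-1.20) and Eno3 (-1.18), and the higher one was Pdk4 (1.24). Hk2, Pfkfb3 and Bnip3, lower at both times, had values of 0.16, -0.48 and -0.11. With the mean of probe sets Pfkp (-0.918) and Aldoc (-0.946) missed the rule, as did Slc16a3 (-0.768) with 16 added before log2. The median was -0.367, against 0.061 over all genes. With 1 array per cell of the design there is no test of it.

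**Figure D4:**
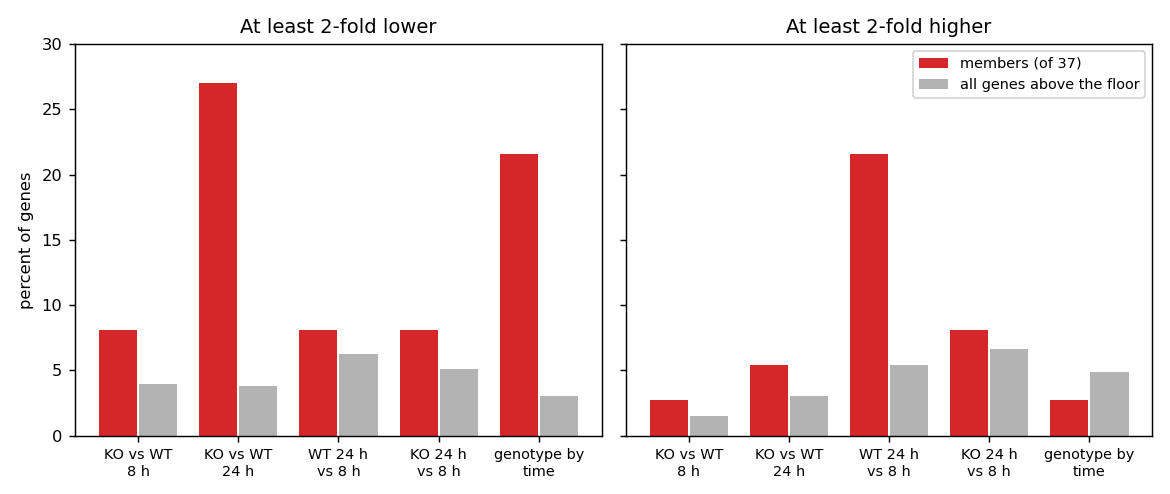
Bars give the percent of the 37 genes of the set (red) and of all genes above the floor (grey) that were at least 2-fold lower (left) or higher (right) in each comparison; bars start at 0. The set stands above all genes among those lower in the knockout at 24 h (27.0% against 3.79%), those higher in wild type at 24 h (21.6% against 5.41%) and the genotype by time difference (21.6% against 3.02%).

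Between 4 h and 8 h in the knockout, all 5 arrays were first brought to the same distribution. Of the 37 genes, 7 were higher at 8 h (18.9%), against 17.9% of 13747 genes, and 6 lower (16.2%), against 11.9%. Both shares lay near the background. The higher genes were Hk1, Pfkl, Pfkfb4, Aldoa, Eno2, Pdk2 and Bnip3, and the lower ones Slc2a3, Hk2, Pfkp, Pfkfb2, Slc16a1 and Dld. Hk2 read 371 at 4 h and 141 at 8 h on that scale, and Bnip3 390 and 1740. As deposited, the 4 h array read 113 for Pfkl, 367 for Pfkm, 2141 for Pfkp, 188 for Pfkfb3, 238 for Pfkfb4 and 454 for Pfkfb2. It read 5055 for Aldoa, 205 for Aldoc, 12437 for Pgk1, 2244 for Pgam1, 27 for Eno2 and 119 for Eno3. These deposited values may not share the scale of the later arrays and are not ranked against them. The 4 h value was 11707 for Ldha, 7310 for Ldhb, 5727 for Slc16a1 and 33 for Slc16a3, on that array's own scale. It was 323 for Pdk1, 19 for Pdk2, 345 for Pdk3 and 447 for Pdk4, 970 for Egln1, 1054 for Egln3 and 583 for Bnip3, and 1487 for Slc2a1, 254 for Slc2a3 and 96 for Hk1. Dld, a subunit of pyruvate dehydrogenase, read 1482 at 4 h, then 486 in wild-type cells and 410 in knockout cells at 8 h and 478 and 304 at 24 h. Time and the RNA quality of the 4 h array cannot be told apart.

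The neighbouring pathways were counted on lists of their own. At 24 h, when 3.79% of all genes were lower and 3.01% higher, 0 of 22 other genes of sugar entry and glycolysis, 1 of 8 of pyruvate oxidation, 0 of 8 of the pentose phosphate pathway, 0 of 17 of glycogen, 2 of 24 HIF factors and targets and 1 of 19 of the tricarboxylic acid cycle were lower in the knockout, and 0 in any list were higher. The genes were Pdhx, a pyruvate dehydrogenase component (340 in wild type and 152 in the knockout), Vegfa, the vascular growth factor (891 and 383), Bhlhe40, a repressor induced by HIF (661 and 167), and Idh3a, a subunit of isocitrate dehydrogenase (1855 and 888). Medians at 24 h ran from -0.254 for the tricarboxylic acid cycle to 0.161 for pyruvate oxidation. At 8 h, against 3.94% of all genes lower, 1 of 21 other glycolysis genes, Slc2a10 (63 and 25), and 1 of 24 HIF genes, Ak4 (825 and 337), were lower, and 0 passed in the other 4 lists. Hif1a, the oxygen-regulated HIF subunit, read 5187 and 7003 at 8 h and 3814 and 4977 at 24 h. Epas1, a related subunit prominent in endothelium, read 6545 and 4524, then 941 and 1499. Neither passed by genotype at 8 h or 24 h. In the genotype by time difference 2 of the 24 HIF genes were lower, against 3.02% of all genes. There 1 was higher, Epas1 at 1.205, against 4.89%, and Hif1a was at -0.049.

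The part of other cell types in these differences was not tested. Endothelial markers had a median genotype difference of -1.627 at 8 h and -0.759 at 24 h, with 15 and 13 of 15 below 0. For stroma, pericytes and smooth muscle the medians were -2.164 and -0.441, with 15 and 14 of 15 below 0. Leukocyte markers had medians of -0.566 and -0.295, and surface epithelium markers 0.05 and -0.489.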

How the data were processed

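Intensities of 5 Affymetrix arrays were used as deposited by the authors, from total RNA extracted with RNeasy kits and made into biotin-labelled cRNA, per the labels' protocols. Per the submitters' processing notes, affy and RMA were used, without versions; the normalization of the 4 h array is not given in the sources here. The deposited intensities are whole numbers on a linear scale, and log2 was taken here. The platform annotation gave the gene names, with 34958 probe sets having 1 symbol, 932 several and 9211 none listed, and symbols were updated through a RefSeq gene table of GRCm38.p6, which 34754 identifiers matched. The probe set of highest mean over the 5 arrays stood for a gene.

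Calls used a size rule, 2-fold with the higher value at the floor of 19. The averaged genotype difference was fitted on 4 arrays, with time as a term, in R 4.3.3 (limma 3.58.1), eBayes with an intensity trend and Benjamini-Hochberg adjustment at 0.05, and was checked on simulated data. The 8 h to 4 h values followed quantile normalization of 5 arrays. The number of arrays limits the precision. Alternatives were 3 scalings, 3 choices of probe sets (the one by the mean over 4 arrays was added after seeing the data), 2 floors, 2 folds and an offset of 16. By the rule for named genes, all of the set that passed in a comparison and their paralogs are given with their intensities, and, of the 6 pathway lists, those that passed by genotype; the rest of the set is named so that each gene is accounted for, and the intensities of Pgd, Tkt and Taldo1 go beyond the rule; Hif1a and Epas1 were chosen after their values were seen. The set, the 6 pathway lists and the 8 marker lists were chosen with earlier results of these data known.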

Additional observations from a re-analysis of the deposited data

Results flagged for a closer look

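In 7 genes the knockout was above wild type at 8 h and below it at 24 h, with opposite signs on the single arrays of each time, and the genotype difference changed by more than 2-fold. The 8 h differences of Aldoc (0.06), Ldha (0.12), Slc16a3 (0.16) and Egln3 (0.23) were smaller than the technical SD of 0.257. That SD is between probe sets of a gene and does not measure the spread between replicate arrays. With 1 array per group, the 8 h sign is not resolved for any of the 7 genes. The 7 are among the 8 genes of the set lower in the genotype by time difference, against 3.02% of all genes. How many of all genes went from above to below wild type was not counted, so the 7 are not read as a result about the set. On the log2 scale the difference at 24 h minus that at 8 h was -1.754 for Pfkp, -1.726 for Ldha, -1.633 for Egln3, -1.582 for Pgk1, -1.282 for Slc16a3, -1.204 for Aldoc and -1.178 for Eno3. With the mean of probe sets Pfkp (-0.918) and Aldoc (-0.946) came to less than 2-fold, as did Slc16a3 (-0.768) with 16 added before log2. The difference was not tested, since there is 1 array for each genotype and time.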

How the results depend on the processing

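Of the 42 calls of single genes, 17 were kept under every alternative that gave a value and 24 under all but the 3-fold rule. Genes higher in the knockout at 24 h numbered 1 instead of 2 under median centring, 75th percentile scaling, probe sets without _s_at, _x_at or _a_at names, the floor at the 60th percentile, the 3-fold rule and 16 added before log2. Those higher at 8 h numbered 0 instead of 1 under the last 4 of these. With the mean of probe sets, 6 were lower at 24 h instead of 10, 5 rose in wild type instead of 8 and 1 in the knockout instead of 3. Over all genes these were 423 of 12854, 583 of 12830 and 632 of 12794. Without the named probe set types, which left 28 genes, 1 rose in the knockout, against 751 of all 11836 genes. The genotype by time difference was lower in 5 instead of 8, against 371 of 12126. Aldoc in the knockout over time turned to -0.241, from a probe set below the floor. At 1.5-fold, 5 were lower at 8 h, against 1100 of all 13382 genes, and 13 rose in wild type, against 1821 of 13501. In the knockout 10 rose and 9 fell, against 2184 and 1499 of 13495. The genotype by time difference was lower in 13 and higher in 3, against 1188 and 1845 of 13787. At 3-fold, 4 were lower at 24 h, against 184 of all 13543 genes, and 3 rose in wild type, against 247 of 13501. In the knockout 0 rose, against 249 of 13495. The genotype by time difference was lower in 4 and higher in 0, against 131 and 201 of 13787. The limma fit called 0 of the genes under each setting. No paired analysis was possible because each group holds 1 array. Without replicates, and with technical spread alone measured, differences near 2-fold and intensities near the floor are the least secure.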
